A study of Mus musculus with 6 samples.

Results

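The comparison described here sets cultures of mouse CD4+ T cells labelled RA against cultures labelled Ro. RA stands for retinoic acid, the acid form of vitamin A, which the series title names. Ro is not expanded in the labels. The series holds 6 oligonucleotide arrays of cultured CD4+ T cells, the T lymphocytes that help other immune cells, which came from spleen together with peripheral and mesenteric lymph nodes. There are 2 Control, 2 RA and 2 Ro arrays, and the 4 RA and Ro arrays were chosen by their titles. The Control arrays were left out of the fit and are quoted only as levels. Of the 45101 probe sets on the array, 27900 lay above the 40th percentile of their array on at least 2 of the 4 arrays and were tested, which gave 12332 genes. The sources used here do not give the dose, mouse strain, age or time in culture of the RA and Ro arrays. A culture mixture is given only for Control replicate 2, which had 5 days with IL2, IL6, IL21, IL23, IL1b, TGFb1 and TNFa while IL4 and IFNg were blocked by antibodies.

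Retinoic acid enters the cell, binds retinoic acid receptors that sit on DNA together with retinoid X receptors, and turns on genes near those sites. Among the best known targets are genes that dispose of retinoids, so that the hormone limits its own level. In T lymphocytes it is known as the signal by which dendritic cells of the gut imprint a homing receptor programme on the T cells they activate, and as a modulator of the choice between helper and regulatory states.

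The array medians were 17.7 and 20.8 units of deposited signal for RA and 20.0 and 21.5 for Ro, an arbitrary linear scale. Correlations of log2 signals among the 4 arrays ran from 0.946 to 0.970, and the highest was between RA replicate 2 and Ro replicate 2, not between arrays of 1 group. The Ro arrays correlated at 0.956 and the RA arrays at 0.968. Between the Ro arrays 11.8% of tested probe sets lay at least 2-fold apart, and between the RA arrays 7.85%, against 4.35% between the group means. Defining T cell genes were present at similar signals in both groups: Cd3e stood at 1701 and 1909.7 across the RA pair and 1814 and 2728 across the Ro pair, and Cd4 at 1308 and 1141 with RA and 1387 and 1791 with Ro. With 2 arrays a group, precision is limited by their number.

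After centring each array on its median, the fit in limma called 8 probe sets at an adjusted p under 0.05 (0.0287% of those tested), 5 higher in RA (0.0179%) and 3 lower (0.0108%). They belong to 6 genes. Ccr9, P2rx7 and Cyp26b1 were higher in RA, and Cma1, Tph1 and Nacc2 were lower. An unadjusted p under 0.05 was found for 880 genes (7.14%), 186 of them higher (1.51%) and 694 lower (5.63%). Only 33% of genes had a difference above 0, and the median gene stood at -0.15 on the log2 scale (RA minus Ro) after centring, at -0.24 without centring and at -0.003 after quantile normalization. Of all genes 531 (4.31%) had a 2-fold difference and no overlap, 206 higher (1.67%) and 325 lower (2.64%). Counted over probe sets the split was 410 higher and 636 lower, and it was 322 and 841 without centring and 84 and 230 with a pseudocount at the median of all values. Without RA replicate 1 or without RA replicate 2 the fit, whose spread then comes from the Ro arrays alone, called 0 probe sets, with 580 and 1625 at an unadjusted p under 0.05. The log2 differences themselves were then 5.29 and 5.84 for Ccr9, 3.24 and 3.62 for P2rx7 and -3.44 and -3.59 for Cma1. Without Ro replicate 1 it called 907 and without Ro replicate 2 it called 536, with the spread then taken from the RA arrays alone. With no intensity trend, or with all 6 arrays in 1 fit, it called 0. The 6-array fit takes in Control replicate 2, whose log2 signals correlated at only 0.870 to 0.882 with the other arrays. Control replicate 1 correlated at 0.960 to 0.971 with the RA and Ro arrays. Whether Control replicate 2 widened the spread of that fit was not tested.

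P2rx7 encodes a channel opened by extracellular ATP, which can kill or stimulate T cells. Its signal was 805 and 714 across the RA pair and 66.9 and 78.3 across the Ro pair, a log2 difference of 3.43 (SE 0.26, n = 2 arrays a group, limma adjusted p = 0.0257). The groups were far apart, and the Control arrays took both positions, at 759 in replicate 1 and 80.3 in replicate 2. All 3 tested probe sets of P2rx7 had both RA arrays above both Ro arrays, with differences from 0.91 to 3.60, and 1 of them was called. Ccr9, the receptor for the chemokine of the small intestine, read 509 and 398 with RA and 5.76 and 8.93 with Ro (5.57, SE 0.32, adjusted p = 0.0159), and 3 of its 5 tested probe sets were called. Its log2 difference ran from 4.17 to 5.89 over the settings run. Cyp26b1, a retinoic acid hydroxylase, read 87.1 and 116 with RA against 1.77 and 3.70 with Ro (4.29, SE 0.37, adjusted p = 0.0429), and its difference ran from 2.47 to 4.92 over the settings run. The Ro signals quoted for Ccr9 and Cyp26b1 lay below the 40th percentile of their arrays, which was 10.83 and 11.57. These probe sets thus passed the filter through the RA arrays only, and the size of their differences depends on the pseudocount. Another called Ccr9 probe set read 11.48 and 12.93 with Ro, above those percentiles. The third read 7.26 and 11.63, with only Ro replicate 2 above.

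On the other side, Cma1, a chymase of mast cell granules, fell by 3.51 on the log2 scale (SE 0.24, adjusted p = 0.0214). The RA arrays held 33.9 and 43.9 and the Ro arrays 492 and 518. Tph1, the tryptophan hydroxylase that makes serotonin outside the brain, stood at 9.17 and 15.6 with RA and 201 and 235 with Ro, and fell by 3.77 (SE 0.29, adjusted p = 0.0278). Both genes were also low on the Control arrays, with Cma1 at 75.9 and 3.30 and Tph1 at 37.5 and 6.47. Nacc2, a transcriptional repressor with a BTB domain, had 47.3 and 78.0 with RA and 566 and 552 with Ro, and fell by 3.04 (SE 0.27, adjusted p = 0.0429). All 4 tested probe sets of Nacc2 had both RA arrays below both Ro arrays, with differences from -3.04 to -0.96. These arrays measure RNA of whole cultures, so fewer cells of a type and less RNA per cell cannot be told apart.

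**Figure D1:**
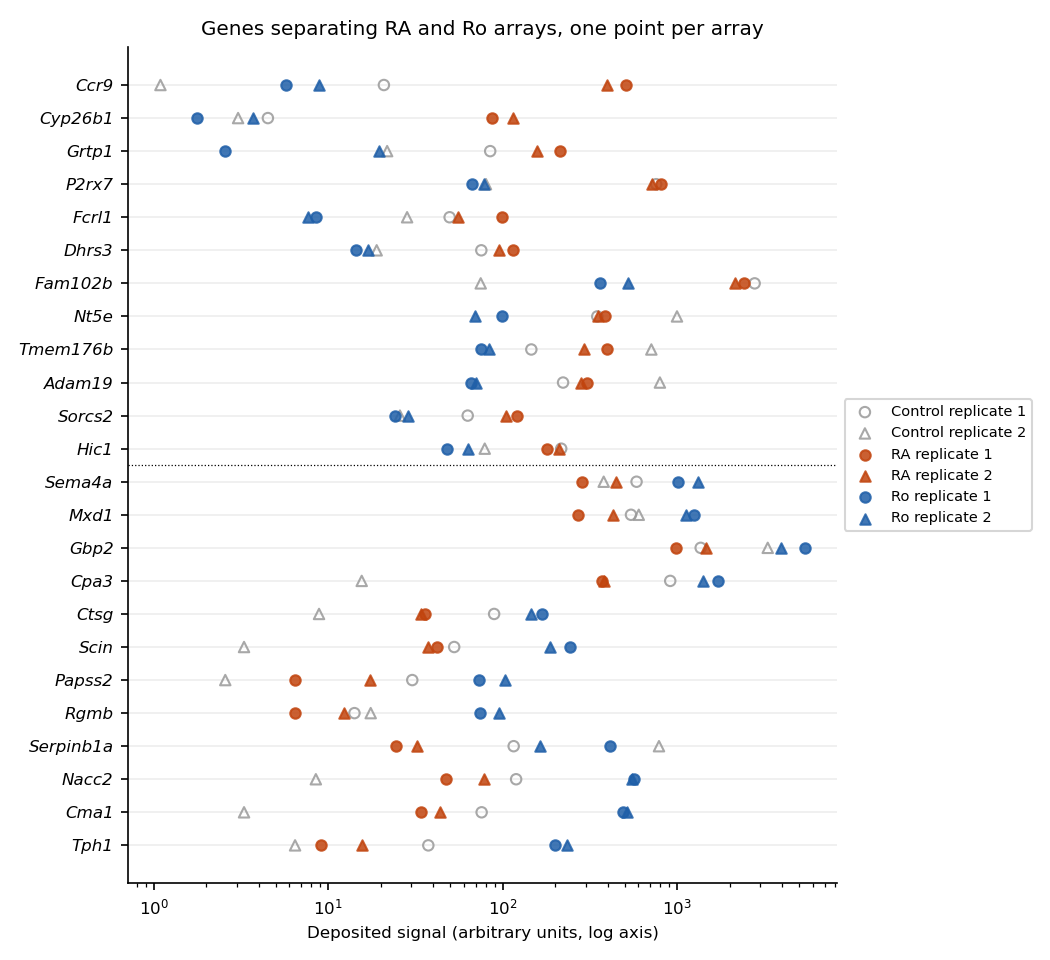
Deposited signal (log axis, arbitrary units) of the 24 genes with the smallest unadjusted p in each direction among those with a 2-fold difference and no overlap, 12 above and 12 below the dotted line. Each symbol is 1 array (circles replicate 1, triangles replicate 2; RA red, Ro blue, Control open grey). The RA and Ro symbols lie apart in every line, whereas the Control arrays often lie far from each other.

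Of the 24 genes with the smallest p in each direction, 18 did not pass the threshold after adjustment, and for these the values are given without a call. Fam102b, a gene of little known function, read 2425 and 2158 with RA and 362 and 524 with Ro (log2 difference 2.48, adjusted p = 0.0701). Adam19, a membrane metalloprotease that sheds growth factors, read 303 and 279.8 with RA and 66.1 and 70.8 with Ro. Sorcs2, a sorting receptor of the sortilin family, read 120.3 and 104 with RA and 24.3 and 28.6 with Ro. In these genes the RA arrays lay close together and at least several times above the Ro arrays. Fcrl1, a member of the Fc receptor-like family usually described on B cells, stood at 98.8 and 55.3 with RA against 8.54 and 7.64 with Ro. Both Ro signals lay below the filter level of their arrays, so Fcrl1 passed the filter through the RA arrays only. Its log2 difference of 2.89 was 3.15 with a pseudocount of 1 and 1.81 with a pseudocount at the median of all values. Grtp1, a TBC domain protein, was at 213 and 157 in RA, while its Ro arrays were far apart at 2.57 and 19.6. Among the lower genes, Rgmb, a co-receptor of BMP signals, stood at 6.44 and 12.3 with RA against 74.6 and 95.6 with Ro, and Scin, an actin-severing protein, at 42.3 and 37.5 with RA against 244 and 186 with Ro. Mxd1, a partner of Max that opposes Myc, read 269.6 and 427 with RA and 1246 and 1131 with Ro. Serpinb1a, an inhibitor of neutrophil serine proteases, read 24.4 and 32.3 with RA and 414 and 164 with Ro. The direction of each of the 24 genes was the same under the 14 settings run. The choice of genes without overlap on these arrays largely fixed that outcome, so it is no check of them.

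Of the retinoid pathway, Cyp26b1 was the gene called, and the other members named here are given by their values. Of 38 genes listed for retinoid metabolism and response, 31 were on the array under a single symbol and 22 passed the filter on low values. The call was 1 of 22, beside 0.0487% of all genes tested, in a list chosen with earlier results of these data known. In 9 members both RA arrays lay above both Ro arrays and in 5 both lay below, beside 8.03% and 32.5% of all genes tested. Dhrs3, which reduces retinal back to retinol, read 115 and 95.8 with RA and 14.4 and 17.0 with Ro (log2 difference 2.63, adjusted p = 0.143). Hic1, a transcriptional repressor induced by retinoic acid in T cells, read 179 and 212 with RA against 47.9 and 63.7 with Ro. Both were several times higher on each RA array, with no array of the other group in between.

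Further down the pathway, Nrip1, a nuclear receptor corepressor, read 1150 and 1123 with RA and 443 and 652 with Ro, and Tgm2, tissue transglutaminase, read 59.8 and 72.2 with RA and 31.8 and 35.6 with Ro. Rarg, the gamma receptor, stood at 107 and 105 with RA and 197 and 236 with Ro, and Rara, the alpha receptor, at 33.4 and 68.9 with RA and 71.3 and 86.5 with Ro. Neither receptor passed the threshold (adjusted p = 0.743 and 0.801), and the Rara log2 difference of -0.58 was -0.19 without RA replicate 1. Relative to the median gene the list had a median log2 difference of 0.37, which ranged from 0.18 to 0.57 when 1 array at a time was left out and was 0.09 with a filter at the 60th percentile. The letters AGGTCA, the core of the sites that retinoic acid receptors bind, were searched on either strand in the 250 bases before the start. They occurred in 5 of 15 list members with a promoter sequence (33.3%) and in 15.8% of all genes with one. They are not particular to this list, being in 4 of 8 chemokine ligands and 5 of 17 purine signalling members. Shares were low in other lists, with 2 of 27 other trafficking members and 0 of 10 natural killer markers. Pairs of these letters 5 or 2 bases apart were found in 0 of the 15 members.

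Homing receptors were split, with Ccr9 and Itga4 among those higher in RA. Of 10 tested members of the gut homing list 4 lay higher and 3 lower without overlap, beside 8.03% and 32.5% of all genes. Itga4, the alpha 4 integrin chain that pairs with Itgb7 to bind the mucosal addressin, read 1537 and 1410.2 across the RA pair and 178 and 505 across the Ro pair (log2 difference 2.38, adjusted p = 0.478). Its partner Itgb7 read 2258 and 2924 with RA and 3078 and 3710.4 with Ro, with both RA arrays below both Ro arrays as deposited. Gpr15, a receptor for homing to the large intestine, was dim throughout, at 5.60 and 0.989 with RA and 13.3 and 14.1 with Ro. Gpr15 passed the filter through the Ro arrays only. Ccr9 and P2rx7, which the list also holds, were the called members, 2 of 10, beside 0.0487% of all genes. As P2rx7 is an ATP channel, Ccr9 was the only homing receptor among them. The members were chosen with earlier results of these data known, so no conclusion is drawn from that share. The list median relative to the median gene was 0.23, and it was -0.04 without Ro replicate 2 and 0.77 with a filter at the 60th percentile.

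The other trafficking receptors and the enzymes that build selectin ligands leaned towards Ro. Of 36 tested members 0 were called, 26 lay below the median gene, and in 21 both RA arrays lay below both Ro arrays, beside 32.5% of all genes. After quantile normalization that count was 12, beside 17% of all genes. An unadjusted p under 0.05 was found for 8 members lower and 1 higher in RA. Ccr7, which guides T cells into lymph nodes, read 2400.1 and 2847 with RA and 4315 and 4588 with Ro. Ptger4, a prostaglandin E2 receptor, read 431 and 529.9 with RA and 1196 and 871 with Ro. Fut7, the fucosyltransferase of selectin ligands, read 39.5 and 35.6 with RA and 176 and 53.1 with Ro, so most of its gap came from Ro replicate 1. Icam1, an adhesion ligand, stood at 100.1 and 198 with RA against 274 and 451 with Ro. Among chemokines, Ccl4 was at 46.4 and 80.0 with RA and 185 and 163 with Ro, and Xcl1, the lymphotactin gene, at 11.0 and 23.8 with RA and 50.2 and 60.8 with Ro.

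Around P2rx7 the handling of extracellular purines was divided. Nt5e, the CD73 ectoenzyme that makes adenosine from AMP, read 386 and 352 across the RA pair and 99.4 and 69.2 across the Ro pair (log2 difference 2.21, adjusted p = 0.221). Entpd1, the CD39 enzyme that acts before it, overlapped between the groups at 66.2 and 62.5 with RA and 79.2 and 31.6 with Ro. P2rx1, another ATP-gated channel, stood at 17.5 and 18.5 with RA and 59.2 and 49.5 with Ro. P2ry10, a receptor that recognises lysophospholipids, stood at 825 and 868 with RA and 1422 and 1397 with Ro. Of 17 tested members, P2rx7 was the only one called, and the list median was 0.05 above the median gene.

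Genes of mast cells and basophils stood lower in RA. Of 21 tested members 2 were called, Cma1 and Tph1, beside 0.0487% of all genes. This list too was chosen with earlier results of these data known. In 13 both RA arrays lay below both Ro arrays, beside 32.5% of all genes, and in 10 of these by 2-fold, beside 2.64%. Cpa3, the mast cell carboxypeptidase, read 369.7 and 382 with RA and 1711 and 1409.9 with Ro. Ctsg, cathepsin G, read 35.8 and 34.2 with RA and 168 and 145 with Ro, and Fcer1a, the alpha chain of the high-affinity IgE receptor, read 194 and 146 with RA and 397 and 409.5 with Ro. In each of these the lowest Ro array lay above the highest RA array.

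Kit, the stem cell factor receptor, stood at 25.1 and 42.8 with RA and 94.5 and 104 with Ro, and Gata2, a transcription factor of both lineages, at 61.3 and 119 with RA and 282 and 202 with Ro. The tryptase gene Tpsb2 was near the floor in RA at 1.93 and 2.42 and read 48.8 and 35.3 with Ro. Tpsb2 thus passed the filter through the Ro arrays only. Mcpt8, a protease of basophils, had Ro arrays that were far apart, at 766 and 594 with RA and 2599 and 1069.5 with Ro. The list median relative to the median gene was -1.0, and it was -0.37 without Ro replicate 1 and -1.23 without Ro replicate 2. Summed over the 26 list members on the array, the signal was 7423 and 6753 in RA and 13100 and 10530 in Ro, beside 10750 and 7617 in Control. Scin and Csf2rb2, the latter a receptor chain for IL3, were on no marker list of these cells here and also stood lower in RA. Both were picked among genes without overlap, so their direction adds nothing to that list. Csf2rb2 read 181 and 234 with RA against 1040.4 and 496 with Ro. Its log2 difference of -1.69 was -1.11 without Ro replicate 1.

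Interferon-inducible genes stood lower in RA almost throughout. Of 48 tested genes of the type I interferon response 0 were called, but 46 lay below the median gene, and in 40 both RA arrays lay below both Ro arrays, beside 32.5% of all genes. In 23 the difference was also 2-fold, beside 2.64% of all genes, and in none did both RA arrays lie above both Ro arrays. For 35 members the unadjusted p in limma was under 0.05, each lower in RA, beside 5.63% of all genes. Of 15 genes of the interferon gamma list, which holds the inducible GTPases and some partners, 0 were called, 13 had an unadjusted p under 0.05, 13 lay lower without overlap and 8 of these by 2-fold. Irf1, Cxcl10 and Socs1 of that list also stand on other lists. The list medians relative to the median gene were -0.83 and -1.08. Leaving out 1 array at a time gave -1.04 to -0.58 for the first list and -1.51 to -0.67 for the second, with 44 to 47 of 48 and 14 to 15 of 15 members below the median gene. After quantile normalization 38 and 12 members lay lower without overlap.

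Type I response genes bind or destroy viral RNA and carry the signal of the interferon receptor. Stat2, the signal transducer of that receptor, read 123 and 193 across the RA pair and 526 and 480.3 across the Ro pair (log2 difference -1.59, adjusted p = 0.351). Irf7, which amplifies interferon production, read 412 and 689.6 with RA and 1467 and 1132 with Ro. Zbp1, a sensor of nucleic acids in the Z form, read 587 and 671 with RA and 1846 and 1376 with Ro. Both RA arrays lay below both Ro arrays in all of these, with the gap wider than either pair's spread for Stat2 and Zbp1. Ifit3, which binds viral RNA with its relatives, was at 126 and 515 with RA and 2799 and 1538 with Ro, and Ifit1 at 145 and 322 with RA and 1009 and 638 with Ro. Mx2, a dynamin-like antiviral protein, stood at 36.6 and 46.9 with RA against 274 and 141 with Ro. For Oasl2 the Ro arrays themselves were far apart, at 1074 and 243, above 74.6 and 142 in RA. RA replicate 2 lay above RA replicate 1 in each of these genes, and Ro replicate 1 above Ro replicate 2.

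The GTPases, which attack the vacuoles of intracellular microbes, ran the same way. Gbp2 had the smallest p of the list, with 981 and 1460.4 across the RA pair and 5410.1 and 3926 across the Ro pair (log2 difference -1.85, adjusted p = 0.231). Gbp6 read 543 and 1286 with RA and 3336 and 3182 with Ro, and Gbp3 159 and 332 with RA and 885 and 803 with Ro. Irgm1, a regulator of its family, stood at 523 and 964 with RA and 1945 and 2296 with Ro, and Igtp at 3448 and 4294 with RA and 6398 and 6722 with Ro. Irf1, a transcription factor of the interferon response, read 1529.5 and 2460.4 with RA and 3120.4 and 4718 with Ro. Ifng itself was dim and overlapped between the groups, at 3.15 and 25.5 with RA and 17.6 and 85.5 with Ro, and so did Ciita, at 14.5 and 18.4 with RA and 9.24 and 22.1 with Ro.

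The interferon stimulated response element has the core GAAANNGAA. The core was searched on both strands in the 250 bases before the start in RefSeq sequences of GRCm38.p6. It was found in 8 of 11 GTPase list members with a promoter sequence (72.7%) and in 15 of 36 type I members (41.7%), beside 8.18% of 27025 genes with a promoter in the table. Stretches of 60 bases around the core nearest the start are printed for 7 members described above that hold a match, 5′ to 3′ on the gene's strand, with the matched letters in capitals. A match is a description of the letters and not a measured binding site.
Gbp2: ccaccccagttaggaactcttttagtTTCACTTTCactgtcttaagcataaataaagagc
Gbp3: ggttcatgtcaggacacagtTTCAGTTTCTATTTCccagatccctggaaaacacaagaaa
Irgm1: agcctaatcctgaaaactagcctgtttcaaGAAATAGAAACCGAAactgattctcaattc
Igtp: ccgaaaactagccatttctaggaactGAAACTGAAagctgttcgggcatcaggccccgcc
Stat2: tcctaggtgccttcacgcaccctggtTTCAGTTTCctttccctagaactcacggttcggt
Ifit1: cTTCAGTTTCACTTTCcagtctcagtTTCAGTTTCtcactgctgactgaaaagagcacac
Ifit3: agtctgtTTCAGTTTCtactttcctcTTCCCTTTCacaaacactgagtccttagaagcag
These windows lie at chr3:142620579-142620638, strand +, for Gbp2, chr3:142559980-142560039, strand +, for Gbp3, chr11:48871421-48871480, strand -, for Irgm1, chr11:58199496-58199555, strand +, for Igtp, chr10:128270251-128270310, strand +, for Stat2, chr19:34640779-34640838, strand +, for Ifit1 and chr19:34583401-34583460, strand +, for Ifit3. In Gbp3, Irgm1 and Ifit1 the window holds cores that overlap and read as 1 longer run of capitals. The match nearest the start began 58 bases before it in Gbp2, 24 in Irgm1 and 221 in Stat2.

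**Figure D2:**
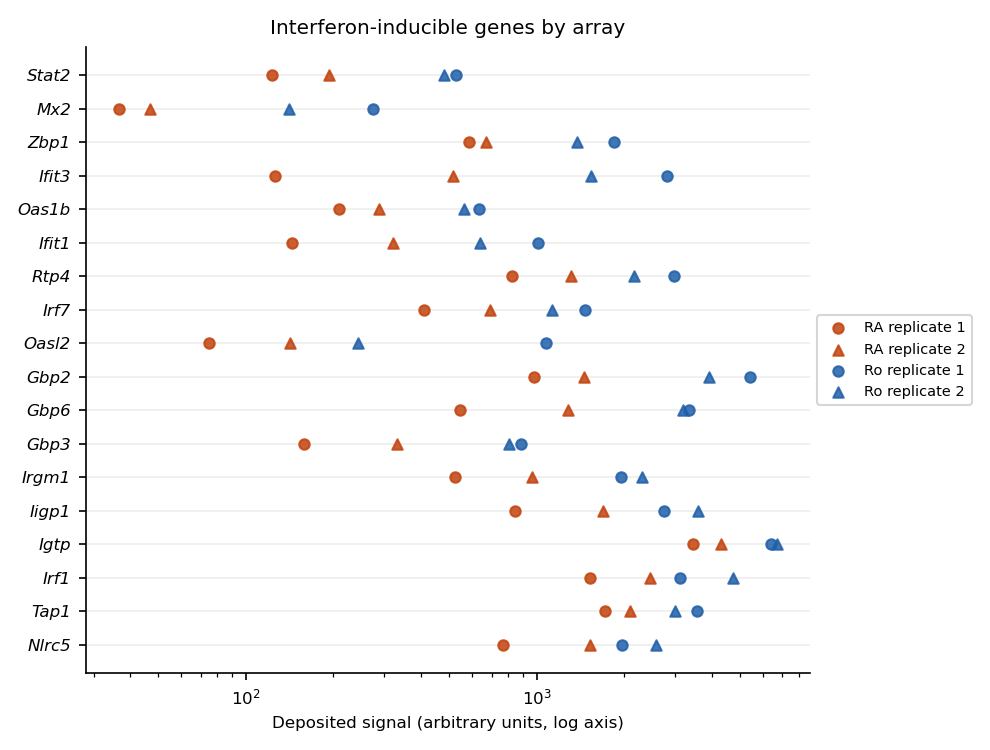
Deposited signal (log axis, arbitrary units) of 18 interferon-inducible genes, 1 symbol per array (circles replicate 1, triangles replicate 2; RA red, Ro blue). Both red symbols lie left of both blue ones in every line, as in Gbp2, at 981 and 1460.4 for RA and 5410.1 and 3926 for Ro. Only members without overlap are drawn, so this holds by choice. Over whole lists 40 of 48 type I, 13 of 15 interferon gamma and 13 of 18 MHC class I genes lay this way. Over all genes 32.5% did.

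Genes of antigen processing for MHC class I, which interferons are known to induce, stood lower in RA in part. Of 18 tested members 0 were called and 13 had both RA arrays below both Ro arrays, beside 32.5% of all genes, with a list median of -0.23 relative to the median gene. Tap1, which pumps peptides into the endoplasmic reticulum, read 1717 and 2091 with RA and 3559 and 2983 with Ro. Tapbp, its bridge to class I molecules, read 2494 and 3130.3 with RA and 5077 and 5138 with Ro, and Nlrc5, the class I transactivator, read 766 and 1526 with RA and 1959 and 2572 with Ro. B2m, the shared light chain, did not separate, at 7668 and 6947 with RA and 7542 and 7589.5 with Ro. Class II genes split: Cd74, the invariant chain, stood at 278 and 369 with RA and 934 and 779.8 with Ro, while H2-Oa, a modulator of peptide loading, stood at 454 and 527 with RA and 234 and 348 with Ro.

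Receptors that make a T cell responsive to IL12 and IL18 were lower in RA, and none was called. Il12rb2 read 19.1 and 45.6 across the RA pair and 117 and 137 across the Ro pair (log2 difference -1.89, adjusted p = 0.539). Il12rb1 read 67.8 and 84.8 with RA and 212 and 151 with Ro, and Il18r1 read 255 and 224 with RA and 1183 and 542 with Ro. Each of these had both RA arrays below both Ro arrays. Runx3, a transcription factor of Th1 and cytotoxic cells, stood at 336 and 409 with RA and 913 and 972 with Ro, and Tbx21, the master regulator of Th1 cells, at 36.8 and 185 with RA and 223 and 299 with Ro, with the RA arrays far apart. Stat4, which carries the IL12 signal, overlapped at 1517 and 1925 with RA and 955 and 2318 with Ro. Of 21 tested Th1 genes 18 lay below the median gene and 13 lay lower without overlap, beside 32.5% of all genes, with a list median of -0.70. An unadjusted p under 0.05 was found for 7 lower and 1 higher in RA, beside 5.63% and 1.51% of all genes. The list median was -1.0 without RA replicate 2, -0.42 without RA replicate 1 and -0.43 without Ro replicate 1.

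Among other surface receptors, 7 of 19 tested immune checkpoint genes lay lower without overlap, beside 32.5% of all genes. Il6ra, the IL6 receptor chain, read 296 and 438 with RA and 929 and 1182 with Ro. Cd274, the ligand PD-L1, read 100.3 and 182 with RA and 318 and 447 with Ro, and Lag3, an inhibitory receptor for class II molecules, 818 and 688 with RA and 2202 and 1449 with Ro. These 3 genes each had both RA arrays below both Ro arrays, and none passed the threshold. Of 32 tested cytokine receptors 14 lay lower without overlap and 2 higher, beside 32.5% and 8.03% of all genes. Of 46 genes of T cell receptor signalling and early response 25 lay lower without overlap, beside 32.5% of all genes, and after quantile normalization 12 did, beside 17%. Nr4a1, an immediate early gene of receptor signalling, read 671 and 976 with RA and 1372 and 1461 with Ro.

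Among markers of other lymphocytes, natural killer and CD8 T cell lists had medians below the median gene, while the B cell list stood at 0.06 with summed signals of 4921 and 5687 for RA and 4851 and 6763 for Ro. Klrd1, the CD94 chain of natural killer receptors, stood at 223 and 322 with RA and 887 and 566 with Ro, and Klrk1, the NKG2D gene, at 11.4 and 21.9 with RA and 191 and 39.6 with Ro. The summed signal of 24 natural killer markers was 1885 and 2450 in RA and 6382 and 2804 in Ro, and of the defining markers Ncr1 and Klra8 lay below the filter. The list median of -0.78 was -0.13 without Ro replicate 1. Klrc1 and Klrk1 stand on the CD8 list too. Summed CD8 T cell markers were 511 and 798 in RA and 1726 and 1422 in Ro. Cd8a itself was dim but higher in RA, at 14.9 and 15.5 with RA against 6.98 and 9.69 with Ro, and passed the filter through the RA arrays only. Summed myeloid markers were 3565 and 3574 in RA and 6808 and 4965 in Ro, but the list median relative to the median gene was -0.01, 0.38 without Ro replicate 1 and -0.62 without Ro replicate 2. Summed T cell identity genes were 48500 and 48690 in RA and 51170 and 62240 in Ro. Their part in the differences of interferon, Th1 and mast cell genes was not tested. The cytotoxic granule list had a median of -0.42, with 12 of 17 members below the median gene, and stood at 0.14 without Ro replicate 1. Gzma read 64.0 and 52.1 with RA and 1758 and 18.1 with Ro, and Gzmb 756 and 537 with RA and 3276 and 598 with Ro. The Gzma log2 difference of -1.57 became 1.66 without Ro replicate 1.

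**Figure D3:**
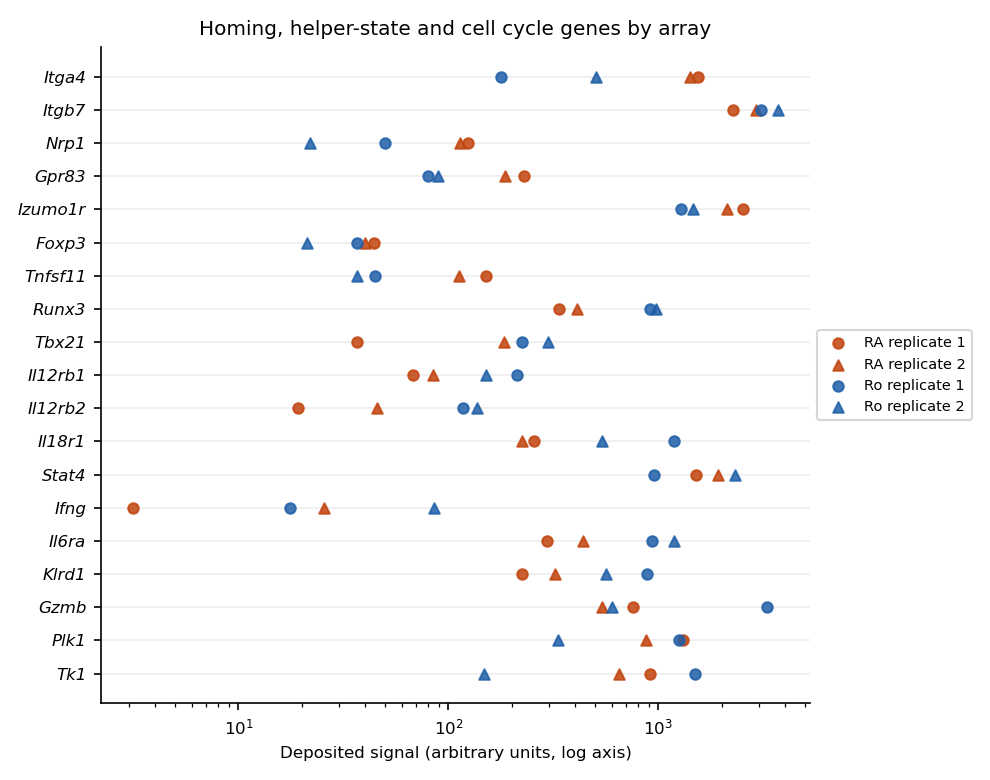
Deposited signal (log axis, arbitrary units) of homing, helper-state, killer and cell cycle genes, 1 symbol per array (circles replicate 1, triangles replicate 2; RA red, Ro blue). Il12rb2 and Il18r1 have both RA arrays left of both Ro arrays, Itga4 and Nrp1 have them on the right, and in Tk1 the Ro arrays enclose the RA arrays.

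Genes of regulatory T cells were divided, with members on both sides. Foxp3 was dim, at 44.2 and 40.1 with RA and 36.7 and 21.3 with Ro. Nrp1, a semaphorin receptor used as a marker of thymus-derived regulatory cells, read 124 and 114 with RA and 49.8 and 21.97 with Ro (log2 difference 1.84, adjusted p = 0.696). Gpr83, an orphan receptor of the same cells, read 229 and 186 with RA and 79.6 and 89.2 with Ro, and Izumo1r, the folate receptor 4 gene, read 2522 and 2132 with RA and 1278 and 1469.6 with Ro. In these genes both RA arrays lay above both Ro arrays. Ikzf2, the Helios gene, lay on the other side, at 287 and 329 with RA and 723 and 348 with Ro. Of 25 tested members 0 were called, 6 lay higher and 8 lower without overlap, beside 8.03% and 32.5% of all genes, and the list median was -0.05.

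Th17 genes showed as little common movement. Il17a was dim and overlapped between the groups, at 8.01 and 18.9 with RA and 10.6 and 18.0 with Ro. Tmem176b, an intracellular cation channel known from Th17 cells, read 396 and 294 with RA and 75.2 and 84.1 with Ro, and its neighbour Tmem176a read 224 and 148 with RA and 55.5 and 57.3 with Ro. Stat3, which carries IL6 and IL23 signals, stood at 877 and 1336 with RA against 1533 and 2296 with Ro. Of 16 tested members 0 were called and the list median was -0.08. Th2 genes had a median of 0.00, with Gata3 at 779.8 and 789 with RA and 938 and 1043 with Ro. Tnfsf11, the RANK ligand gene, stood at 151 and 112 with RA and 44.8 and 36.7 with Ro. Of 28 tested genes of the TNF family and costimulation, 4 lay higher and 8 lower without overlap, beside 8.03% and 32.5% of all genes. By 2-fold these were 2 higher, Tnfsf11 among them, and 0 lower, beside 1.67% and 2.64%.

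Glycolytic and hypoxia-inducible genes leaned towards RA relative to the median gene. Of 41 tested members 0 were called, 31 lay above the median gene, and in 11 both RA arrays lay above both Ro arrays, beside 8.03% of all genes. After quantile normalization both RA arrays lay above both Ro arrays in 23 members, beside 16.4% of all genes. For 4 the unadjusted p was under 0.05 on the higher side and for 1 on the lower. Bnip3, a mitophagy receptor, read 674 and 619 across the RA pair and 307 and 283 across the Ro pair (log2 difference 1.22, adjusted p = 0.559). Tpi1, triosephosphate isomerase, read 2672 and 2453 with RA and 1461 and 1495 with Ro, and Ak4, a mitochondrial adenylate kinase, read 60.3 and 65.8 with RA and 23.3 and 31.2 with Ro. In each of these the replicates were close together and both RA arrays lay above both Ro arrays. P4ha2, a collagen prolyl hydroxylase subunit, was at 32.9 and 29.3 with RA and 12.3 and 14.8 with Ro. Ldha, lactate dehydrogenase A, overlapped at 6094 and 5619.5 with RA and 5594 and 6031 with Ro, and Ndrg1, another hypoxia gene, went the other way at 212 and 302 with RA and 562 and 436 with Ro. The list median of 0.25 ranged from 0.21 to 0.36 with 1 array left out. Before subtraction of the median gene it was 0.11. The lean is not particular to this list, as respiratory chain and ribosomal protein lists stood at 0.23 and 0.19 relative to that gene.

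The hypoxia core ACGTG, which also lies within the E-box CACGTG, was found in 27 of 39 promoters of this list (69.2%), beside 18.5% of all genes with a promoter and 24.7% of genes tested. CACGTG was in 7 of the 39 (17.9%), beside 6.86%. The windows of the 3 members that lay highest in RA on the log2 scale are printed as above, with the match in capitals.
Ak4: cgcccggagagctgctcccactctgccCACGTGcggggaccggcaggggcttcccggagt
Bnip3: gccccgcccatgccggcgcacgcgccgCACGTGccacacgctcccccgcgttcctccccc
P4ha2: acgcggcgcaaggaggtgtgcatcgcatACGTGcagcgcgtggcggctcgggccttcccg
They lie at chr4:101419462-101419521, strand +, for Ak4, chr7:138909582-138909641, strand -, for Bnip3 and chr11:54100818-54100877, strand +, for P4ha2, in GRCm38.p6. In Ak4 and Bnip3 the capitals form the E-box, so the core is present on both strands, whereas P4ha2 holds the core alone.

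**Figure D4:**
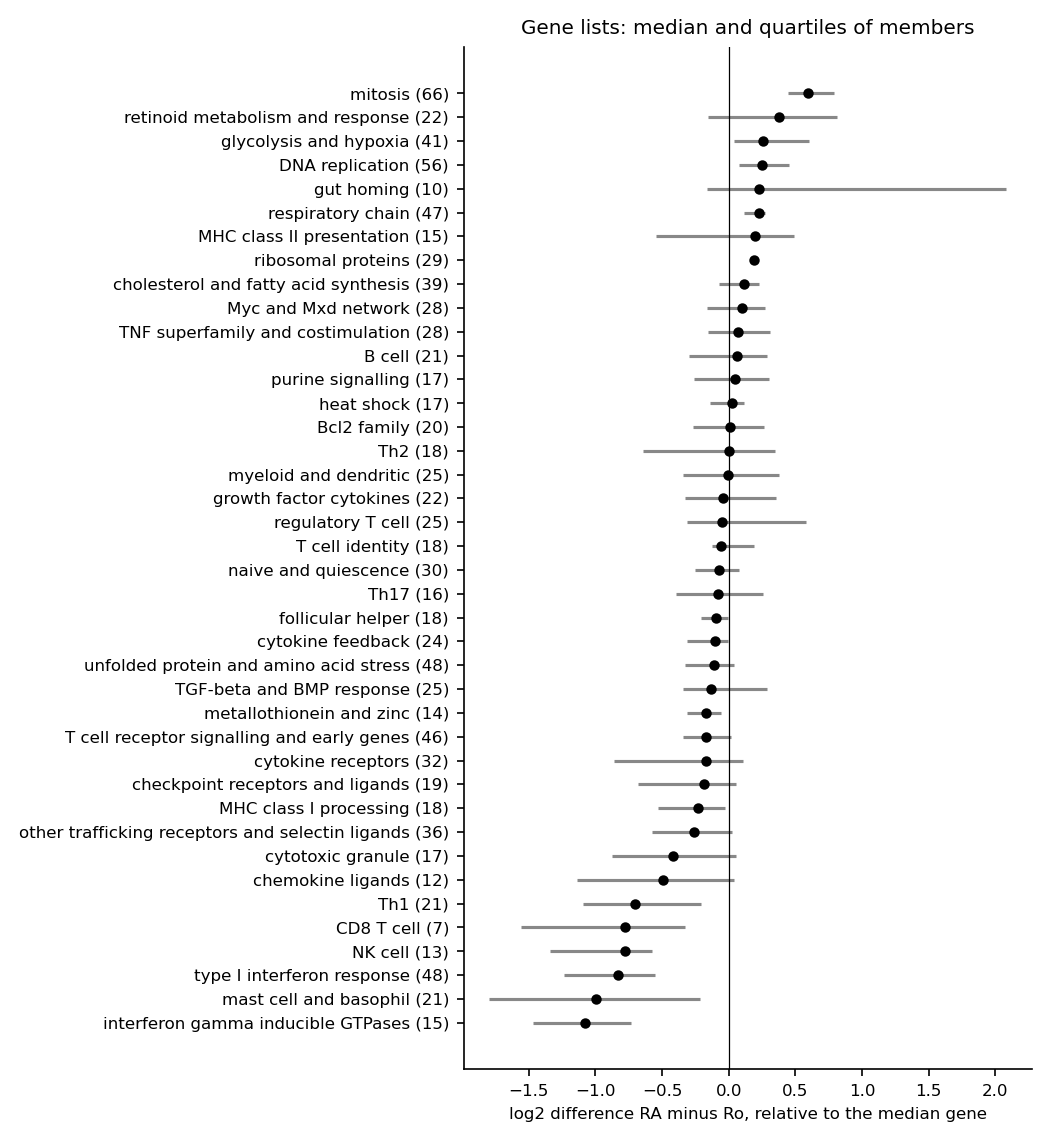
Median (point) and quartiles (bar) of the log2 difference RA minus Ro over the tested members of each gene list, relative to the median gene at 0, with the number of tested members in parentheses. Among the lists drawn, interferon, mast cell, natural killer, CD8 and Th1 lists lie lowest, from -1.08 to -0.70, and the mitosis list lies highest at 0.60. A list of 11 single genes known from earlier results, at 0.75, is not drawn.

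Cell cycle genes had a high list median that 1 array decided. Of 66 tested mitosis genes 65 lay above the median gene, yet 0 were called, 0 had an unadjusted p under 0.05 in limma, and the groups overlapped in all but 1. Plk1, a mitotic kinase, read 1303 and 873 across the RA pair and 1255 and 332 across the Ro pair. Cdk1, the kinase that starts mitosis, read 2694 and 1772 with RA and 2484 and 806 with Ro. Ro replicate 1 was thus near RA replicate 1 while Ro replicate 2 stood lowest of all. The list median of 0.60 became 1.58 without Ro replicate 1 and -0.27 without Ro replicate 2, where 53 of 66 members lay below the median gene. DNA replication behaved alike, with a median of 0.25 that became 1.15 and -0.59, and Tk1, thymidine kinase, read 916 and 646 with RA and 1496 and 148 with Ro. On the log2 scale the replication list stood 0.86 above its mean of the 4 arrays in Ro replicate 1 and at -0.91 in Ro replicate 2.

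**Figure D5:**
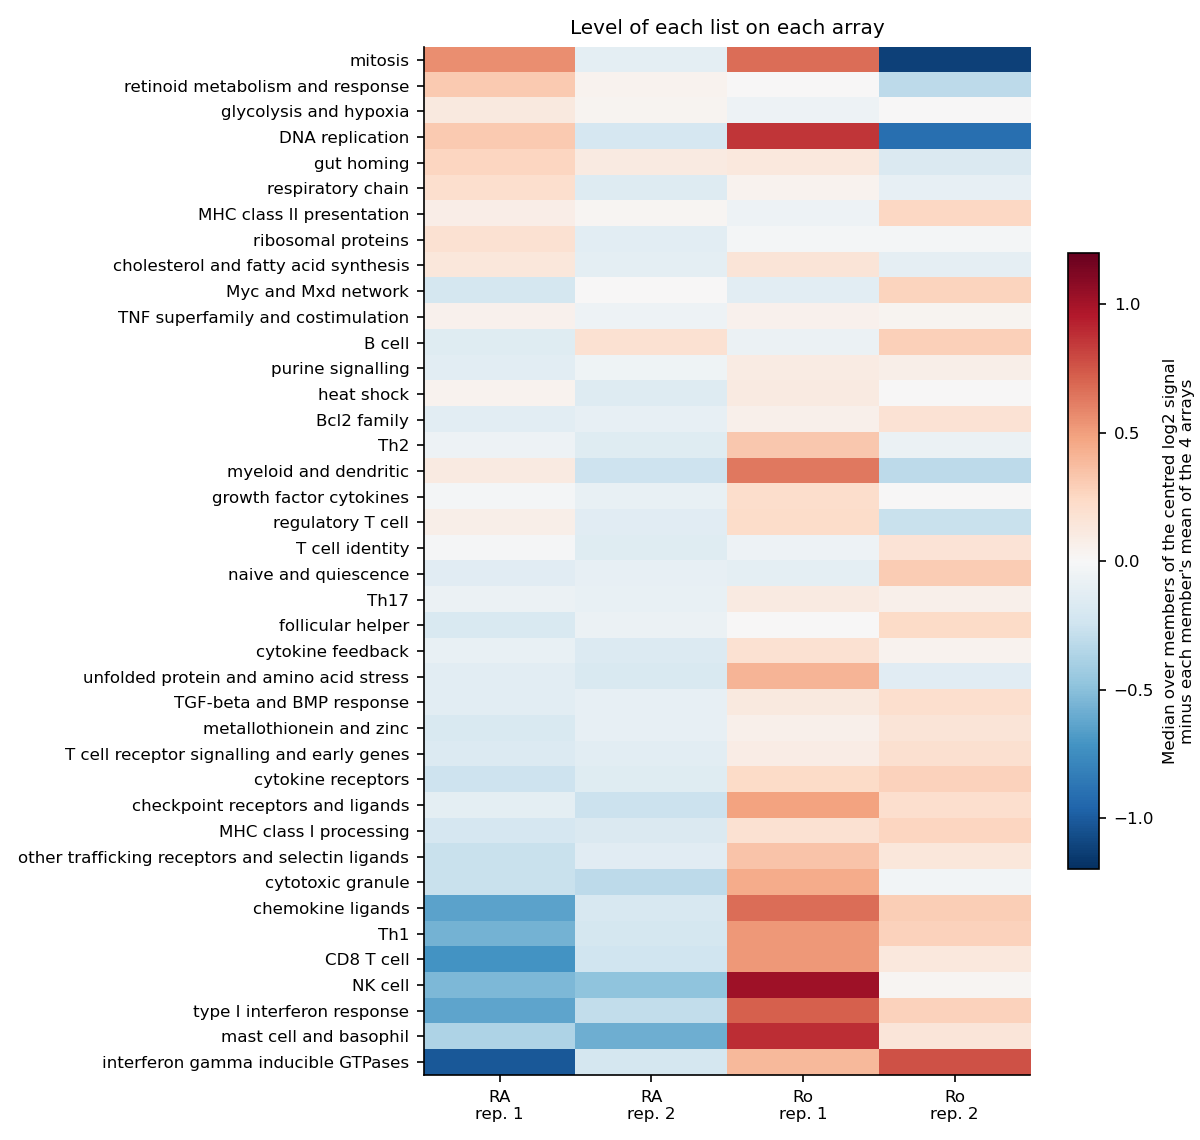
Level of each gene list on each array, as the median over members of the centred log2 signal minus each member's mean of the 4 arrays (red above, blue below that mean). The list of single genes known from earlier results is not drawn. The interferon, Th1 and mast cell rows change colour between RA and Ro, whereas the mitosis and DNA replication rows change between Ro replicate 1 and Ro replicate 2, from 0.67 to -1.12 and from 0.86 to -0.91.

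Further lists are described by their medians relative to the median gene. Chemokine ligands stood at -0.49, with 8 of 12 members below the median gene and a range from -0.89 to -0.27 with 1 array left out. Respiratory chain genes lay above it in 45 of 47 members with a list median of 0.23, but only 1 member was higher without overlap and 3 were lower. After quantile normalization 27 were higher without overlap, beside 16.4% of all genes, and 0 lower, and the list median was 0.18. Ribosomal protein genes had a median of 0.19, and 0.0078 after quantile normalization. T cell identity genes stood at -0.06, naive and quiescence genes at -0.07, Myc and its partners at 0.10, cholesterol and fatty acid synthesis at 0.11, the Bcl2 family at 0.01 and heat shock genes at 0.03. Within the Bcl2 list Bak1, a pore-forming killer protein, read 185 and 218 with RA and 327 and 472 with Ro. Slc7a5, the large neutral amino acid transporter of activated T cells in the stress list, read 164 and 269.6 with RA and 967 and 361 with Ro, with most of the gap from Ro replicate 1.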

How the data were processed

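Each array received 2 ug of total RNA from cultured CD4+ T cells, per the labels' protocols. The authors deposited a linear intensity for every probe set. The submitters' processing notes name MAS5, with its version and scaling target not given in the sources used here. Arrays were grouped by their titles, which write the third group as Ro and RO. Whether replicates were separate cultures or animals is not in the labels, so the p-values cover only the spread among these arrays, which could be technical.

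The 64 control probe sets were left out. In GEO's platform annotation 34958 probe sets have 1 gene symbol, 932 several and 9211 none, and those without a single symbol stayed unnamed. Values were taken as log2(signal + 2.999), the pseudocount being the 20th percentile of all values, which understates differences of dim genes, and each array was centred on its median. The 2 RA and 2 Ro arrays were fitted in R 4.3.3 with limma 3.58.1 (lmFit, eBayes with an intensity trend, 2 residual degrees of freedom). The test was two-sided, with Benjamini-Hochberg adjustment over the 27900 probe sets tested. The script was checked on simulated data.

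A gene was represented by the brightest of its tested probe sets, avoiding probe sets ending in _x_at where it has another. Lists were described by counts and medians relative to the median gene, with no test. Named genes were those with a called probe set, the 12 in each direction with the smallest unadjusted p among genes with a 2-fold difference, no overlap and a higher group mean above the 60th percentile of all values, and in each list the defining members and up to 4 more without overlap. Some further list members were picked with their values in view. The members and the 41 lists were chosen with earlier results of these data known. Promoter sequences are RefSeq's, of GRCm38.p6. Alternatives were other pseudocounts, scalings and filters, no trend, a replicate block, all 6 arrays in 1 fit, gene means, a fold criterion and leaving out each array.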

Additional observations from a re-analysis of the deposited data

How the results depend on the processing

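The number of probe sets called, 8 as reported, was 10 with a pseudocount at the median of all values, 12 without centring and 9 after quantile normalization. It was 5 with a pseudocount of 1, 4 with no filter, 5 with a filter at the 60th percentile, 0 with no intensity trend (1685 at an unadjusted p under 0.05) and 0 with all 6 arrays in 1 fit (585). Leaving out 1 array at a time gave from 0 to 907, and 1046 probe sets met a 2-fold difference without overlap, where no test is made. Whether the replicate numbers pair the arrays is not known, since the labels give them no meaning, and the main fit used no pairing. There would be only 2 pairs, whose deviations from the group means correlate at 0.28. With the replicate number as a block 148 probe sets were called, 58 higher and 90 lower. Of 264 genes compared across settings, 68 changed sign under at least 1, and 12 of these 68 were called under some setting. The genes named here that did so had these lowest and highest log2 differences (RA minus Ro) with 1 array left out. Gzma ranged from -4.81 to 1.66, Gzmb from -2.30 to 0.23, Tk1 from -0.90 to 2.50, Plk1 from -0.18 to 1.82 and Cdk1 from -0.13 to 1.58. Entpd1 ranged from -0.24 to 1.10, Stat4 from -0.30 to 0.89, Ciita from -0.24 to 0.71, Myc from -0.065 to 0.60 and Cd3e from -0.46 to 0.043. Il17a ranged from -0.42 to 0.37, B2m from -0.13 to 0.22 and Ldha from -0.053 to 0.27. Il17a also stood at 0.0078 with a pseudocount at the median, and B2m at -0.052 without centring. Of the list medians under the alternatives, 53 moved by more than the spread between replicates and 521 did not. That spread was each list's own, and it was 0.96 for mitosis and 0.92 for DNA replication. The 521 therefore include medians that changed sign. Without Ro replicate 2 mitosis went from 0.60 to -0.27 and DNA replication from 0.25 to -0.59. Part of the 521 also could not move. Dropping the trend or the filter, adding the block or fitting all 6 arrays leaves the log2 differences of these genes unchanged. Leaving out the centring shifts all genes alike, which cancels relative to the median gene. The count of 521 is therefore no measure of stability. Dim probe sets limit what can be read, since signals near the pseudocount differ little on the log scale used.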
